A study of Mus musculus with 6 samples.

Results

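The RNAs described here are the 200 long noncoding RNAs (lncRNAs) with the largest read counts in mouse bone marrow neutrophils, with or without prostaglandin E2 (PGE2). They were chosen by their count summed over the 6 libraries, from the 12570 rows of the series count table that carry the biotype lncRNA (45777 genes in all). The selection rule left out 2 genes by name. Neutrophils of wild-type C57BL/6 mice had been isolated from bone marrow on a Percoll gradient and kept for 24 h with 10 µM PGE2 (3 libraries) or with its DMSO vehicle (3 libraries). The series design calls the 3 libraries of a group biological replicates, and the labels do not give the age of the mice, the purity of the cells or whether animals were pooled. Polyadenylated RNA was sequenced, so an RNA without a poly(A) tail is poorly seen. Of the 200 RNAs, 167 have a provisional name (Gm, LOC, Rik and the like) and 33 an assigned one.

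A lncRNA is made by RNA polymerase II, and is often spliced and polyadenylated, but is not known to be read into a long protein. Some act as scaffolds of nuclear bodies, some carry small RNAs in their introns, some influence the gene next to them, and for most no role is known. The class rests on annotation. In a second table, RefSeq GRCm38.p6, 193 of the 200 were also lncRNAs, 5 were protein-coding (1810058I24Rik, Ndufb1-ps, BC029722, 0610012G03Rik and Btbd19), 1 was a pseudogene (LOC115487368), and 1 was not matched. PGE2 is a lipid mediator whose receptors EP2 and EP4 raise cyclic AMP in the cell, which activates protein kinase A and, through it, the transcription factor CREB.

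A few of these lncRNAs are precursors of microRNAs, small RNAs that bind messenger RNAs through their seed. By position, 8 of the 200 held 11 annotated microRNA genes on their own strand. The mature sequences of 4 hosts that passed the test described below are shown because they name the small RNA that each host can give rise to, with the seed (bases 2 to 8) in capitals, 5′ to 3′, from RefSeq GRCm38.p6. F630028O10Rik, the RNA with the largest count of all, holds miR-223, a myeloid microRNA known for restraining neutrophil activation.
mmu-miR-223-3p: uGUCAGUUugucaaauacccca
mmu-miR-223-5p: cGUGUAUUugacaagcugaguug
Mir22hg is the host of miR-22.
mmu-miR-22-3p: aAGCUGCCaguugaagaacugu
mmu-miR-22-5p: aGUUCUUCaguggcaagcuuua
Gm35853 holds miR-1941 and Snhg20 holds miR-6516.
mmu-miR-1941-5p: aGGGAGAUgcugguacagaggcuu
mmu-miR-6516-5p: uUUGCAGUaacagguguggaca
In the remaining hosts, A330023F24Rik holds both miR-29b-2 and miR-29c, whose 3p arms share the seed, and it did not pass the test.
mmu-miR-29b-3p: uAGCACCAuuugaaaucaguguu
mmu-miR-29c-3p: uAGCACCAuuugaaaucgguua
Dleu2 holds miR-16-1 and miR-15a, whose 5p arms share a seed, bases 2 to 8 in capitals.
mmu-miR-16-5p: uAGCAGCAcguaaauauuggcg
mmu-miR-15a-5p: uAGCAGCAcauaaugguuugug
Mir17hg (miR-92a-1) and Ftx (miR-421 and miR-374b) make up the 8. The libraries measure the polyadenylated host RNA and not the mature microRNA.

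Library totals ran from 42091346 to 56238941 counts, and 18242 to 19511 genes had a count. The 8 neutrophil markers summed to 69481 to 85997 CPM (counts scaled to the size of the library) in the 6 libraries, and 4 of them were lower with PGE2. Markers of other cells were also present, none of them at 0 in all libraries. The 8 red cell markers summed to 15783, 51790 and 23741 CPM in PGE2 replicates 1 to 3 and to 4477, 20211 and 11891 in vehicle, and none passed the test (5 were higher at an unadjusted edgeR p under 0.05, and DESeq2 called 0). The 8 B cell markers summed to 580 to 856 CPM with PGE2 and 371 to 518 with vehicle, with 4 higher. The 7 eosinophil markers summed to 61.7 to 104 CPM with PGE2 and 132 to 280 with vehicle, with 5 lower, and the 7 monocyte and macrophage markers to 381 to 510 and 583 to 679, with 2 lower. None of the 7 T and NK cell or 5 platelet markers passed with edgeR or DESeq2, and 1 platelet marker had an unadjusted edgeR p under 0.05. For scale, 10.1% of all tested genes were higher and 14.3% lower with PGE2. The part of the other cell types in the results below was not tested. In bulk RNA fewer cells of a type and less RNA per cell cannot be told apart.

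The counts were concentrated in few RNAs. The summed count ran from 2013 to 351927 with a median of 4009, and the 10 most counted RNAs held 54.3% of all counts on the 200. These 200 held 82.2% of the counts on all lncRNA rows. Per length, in TPM (counts scaled by transcript length and library), the mean over the 6 libraries ran from 0.205 to 748 with a median of 12.5, and 146 of the 200 were also among the 200 lncRNAs with the largest mean TPM. F630028O10Rik (chromosome X, 96239926 to 96243642, plus strand, mm10) had the largest mean TPM, 748. Mirt2, a transcript named from infarcted heart and known as a brake on inflammatory signalling in macrophages, followed with 643 (chromosome 15, 76266787 to 76269839, minus strand). Next were 2410006H16Rik, which holds 3 small nucleolar RNAs, with 333, and Gas5, which holds 8, with 262.5. Neat1, the scaffold of nuclear paraspeckles, had a mean TPM of 241, Mir22hg 225 and Malat1, a nuclear speckle RNA, 217. Over the 6 libraries the TPM of F630028O10Rik overlapped that of Mirt2, 2410006H16Rik overlapped Gas5, and Neat1, Mir22hg and Malat1 overlapped one another. F630028O10Rik was above Mirt2, and Malat1 above Mir22hg, in each vehicle library, and the order was the opposite in each PGE2 library. Within each of the 6 libraries 2410006H16Rik was above Gas5.

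The scale mattered for Neat1. Its TPM was 76.5, 373 and 325 in PGE2 replicates 1 to 3 and 94.2, 490 and 85.3 in vehicle, a wide spread within each group. Its read counts were even, 46390, 52285 and 45816 with PGE2 and 47202, 43257 and 52798 with vehicle. Neat1 is annotated with 2 transcripts, a short and a long one as is well known. TPM in general depends on which transcript reads are given to, but this was not examined here. The cause of the spread in TPM was not tested. Comparisons between groups used counts, which were even for Neat1.

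**Figure D1:**
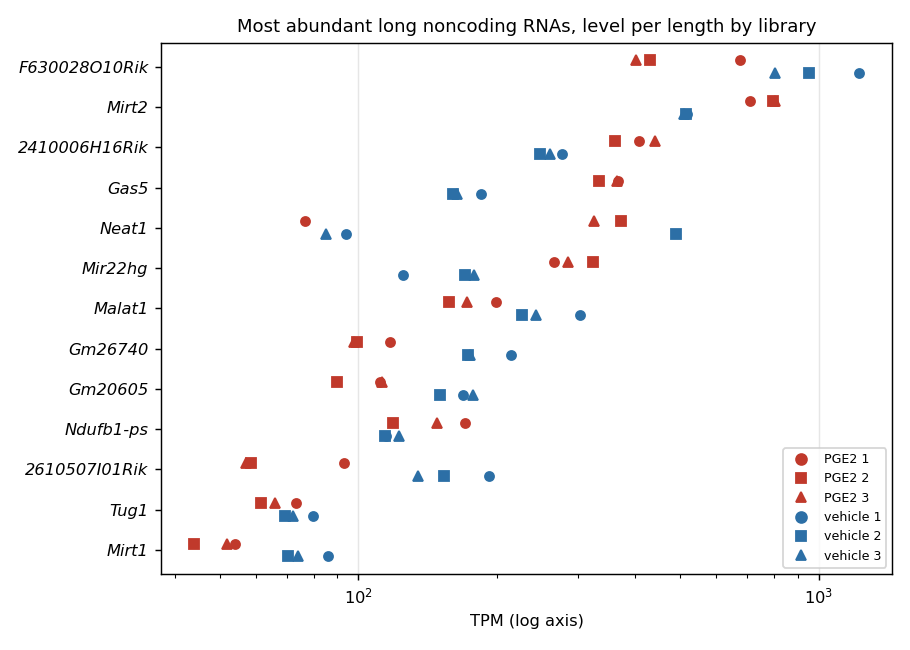
TPM on a log axis for the 13 lncRNAs with the largest summed count or mean TPM, one symbol per library (red PGE2, blue vehicle, symbol shape the replicate number). F630028O10Rik runs from 402 to 1225 TPM with every PGE2 library below every vehicle library, Gas5 and 2410006H16Rik have every PGE2 library above, and Neat1 spreads over both groups.

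More of these RNAs were lower than higher with PGE2. With edgeR's quasi-likelihood test (adjusted p under 0.05 over all 15947 genes tested) 37 of the 200 were higher and 66 lower, and 97 did not pass. Called RNAs were thus 51.5% of the 200, 18.5% higher and 33.0% lower. Of all tested genes 24.4% were called, 10.1% higher and 14.3% lower. A fairer background is the 8884 tested genes with a summed count of at least 2013, since low genes pass less often: there 36.5% were called, 14.2% higher and 22.3% lower. The median log2 fold change (PGE2 minus vehicle) was -0.22 over the 200, 0.04 over all tested genes and -0.01 over those 8884. Among them the 8435 protein-coding genes had 13.6% higher and 22.4% lower. Of the 1500 other lncRNA rows that could be tested, 74 were higher and 112 lower.

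All 200 passed the filter on low counts. The ranking summed both groups, so an RNA present in one group could enter through it. This held for Gm41767, which had no count in vehicle. In each of the 103 called RNAs the 2 groups of 3 libraries were fully apart. Groups did not overlap in 121 of the 200 (60.5%), and in 42.3% of all tested genes. Changes of at least 2-fold were seen for 20 of the higher and 31 of the lower RNAs. The 66 that fell had log2 fold changes of -3.14 to -0.42 with a median of -0.97. Those that rose had values of 0.43 to 3.30 apart from Gm41767, with a median of 1.05. The 97 that did not pass lay between -1.17 and 0.98. By rank, 9 were higher and 22 lower among ranks 1 to 50, 10 and 17 among ranks 51 to 100, 2 and 13 among ranks 101 to 150, and 16 and 14 among ranks 151 to 200, with no steady trend. With the replicate number as a block, 46 were higher and 82 lower, and no call was lost. The block also raised the number of higher calls over all tested genes, so this gain is not particular to the 200. Calls that were higher made up 35.9% of the member calls with TMM scaling, 42.7% with library totals alone and 31.6% on TPM. For all genes these shares were 41.5%, 55.5% and 30.0%.

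**Figure D2:**
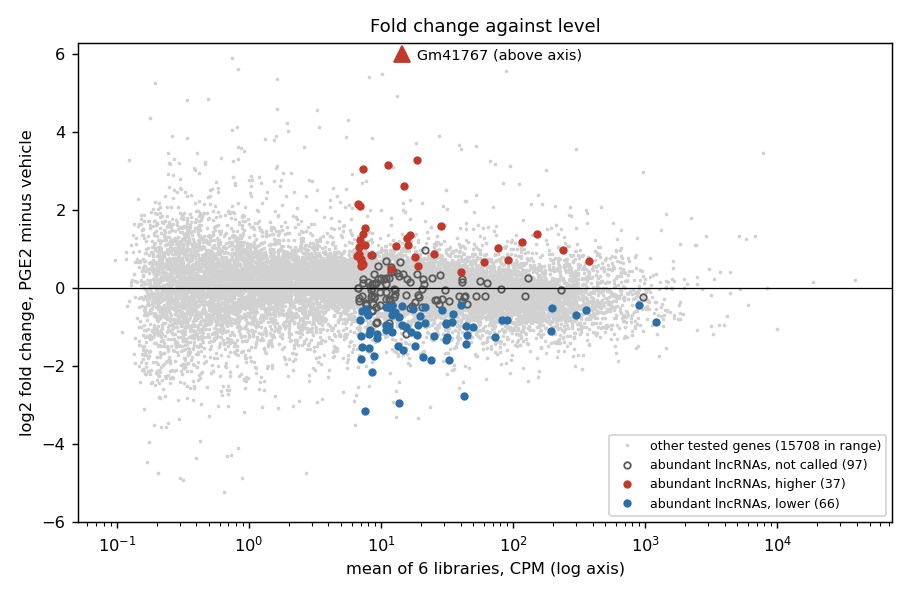
Fitted log2 fold change against mean CPM (log axis) for the 200 lncRNAs over the other tested genes (grey, of which 39 lie beyond the axis). Blue points (66 lower) outnumber red ones (37 higher), the falls spread over the whole range of levels, and Gm41767 lies above the axis because its vehicle libraries had no count.

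As a group the 200 took a smaller part of each library with PGE2. They held 0.903, 0.830 and 0.829% of the counts in PGE2 replicates 1 to 3 and 1.025, 0.934 and 0.924% in vehicle. The groups did not overlap, and the means were 0.854 ± 0.042% and 0.961 ± 0.056% (SD, n = 3 each). The exact permutation test (two-sided) gave p = 0.1, the smallest that 3 against 3 libraries allow. On TPM the shares were 0.655, 0.616 and 0.652% against 0.725, 0.679 and 0.654%, where the groups overlapped (exact permutation p = 0.2).

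Of 7 tested RNAs listed for nuclear architecture, 1 fell and none rose (of all tested genes, 14.3% were lower and 10.1% higher). Their median log2 fold change was -0.06 (0.04 over all tested genes). Norad was listed too, but the series names it 2900097C17Rik, so it is not among the 7. It is among the 200 and did not pass, with a log2 fold change of -0.20. Malat1 (chromosome 19, 5795690 to 5802672, minus strand), whose mature end is an encoded A-rich stretch, was at 818, 754 and 703 CPM with PGE2 and at 1128, 955 and 989 with vehicle. All PGE2 libraries were below all vehicle libraries, and the log2 fold change was -0.43 ± 0.10 (SE, edgeR adjusted p = 0.0159). Without PGE2 replicate 2 or 3 the adjusted p of edgeR was 0.0575 and 0.0568. Neat1, from the neighbouring locus on the same chromosome, had a log2 fold change of -0.23 ± 0.11 and did not pass, although its groups did not overlap. Tug1, a widely expressed nuclear and cytoplasmic RNA, lay at 210 to 236 CPM with PGE2 and 233 to 235 with vehicle, with a log2 fold change of -0.06 (SE 0.08, groups overlapping). Firre, Kcnq1ot1, Airn and Pvt1 lie below the 200 and did not pass, and Airn was at 0.534, 0.497 and 0.511 CPM with PGE2 and 0.0873, 0.174 and 0 with vehicle. Airn was the listed RNA with an unadjusted edgeR p under 0.05 for a rise, and DESeq2 called it. Airn met the count filter through the PGE2 libraries alone, with 27, 26 and 31 counts, so nothing is concluded from it. None of the 3 tested RNAs of the X inactivation centre passed with edgeR, none had an unadjusted p under 0.05, and DESeq2 called none. Xist, below the 200, had 0, 0 and 10 counts with PGE2 and 10, 17 and 16 with vehicle, and did not pass (edgeR adjusted p = 0.201). Without PGE2 replicate 3 it passed (edgeR adjusted p = 0.0212). In that fit it met the count filter through the vehicle libraries alone, at counts near the filter, so nothing is concluded from it. Of the 3, Ftx is among the 200, with 5.75 to 7.23 CPM with PGE2 and 5.01 to 7.68 with vehicle.

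Host RNAs of microRNAs went both ways. F630028O10Rik, with the hairpin of miR-223 printed above, was at 1102, 820 and 651 CPM in the PGE2 libraries and at 1808, 1593 and 1298 in the vehicle libraries. It fell 1.83-fold, a log2 fold change of -0.87 ± 0.20 (SE, edgeR adjusted p = 0.0152), which became 0.0559 without PGE2 replicate 2 and 0.0517 without vehicle replicate 1. Mir22hg (chromosome 11, 75461539 to 75466690, plus strand) was at 276, 391 and 294 CPM with PGE2 and at 118, 182 and 183 with vehicle. It rose 1.99-fold, with all PGE2 libraries above all vehicle libraries (edgeR adjusted p = 0.00818). Gm35853, the host of miR-1941, fell with a log2 fold change of -1.43, and Snhg20, the host of miR-6516, rose by 0.62. Dleu2, A330023F24Rik, Ftx and Mir17hg did not pass. Mir17hg, from which the oncogenic miR-17 cluster is made, was at 10.97, 14.5 and 16.9 CPM with PGE2 and 10.6, 9.20 and 9.32 with vehicle. Its adjusted p was 0.0534 with edgeR and 0.0364 with the replicate number as a block.

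In the list of microRNA hosts used here 6 of 9 genes in the table were tested, 2 rose and 1 fell, with a median log2 fold change of 0.62. Of all tested genes 10.1% were higher and 14.3% lower, and 6 genes are too few to set against these shares. The counts on this list leave out hosts found by position only: F630028O10Rik and Gm35853, which fell, Snhg20, which rose, and A330023F24Rik and Ftx, which did not pass. The list also carried Mirt1 and Mirt2, which hold no annotated hairpin and were named from infarcted heart. Mirt1 was the 1 that fell, and the 2 that rose were Mirt2 and Mir22hg. Mirt2 was at 406, 531 and 455 CPM with PGE2 and 268, 302 and 288 with vehicle, so its groups were well apart, with a log2 fold change of 0.70 ± 0.11 (SE, edgeR adjusted p = 0.00339). Mirt1 (chromosome 19, 53441212 to 53464796, minus strand) went the other way, from 241, 224 and 228 CPM to 168, 160.0 and 160.2, a log2 fold change of -0.51 ± 0.08.

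Of 17 tested host genes of small nucleolar RNAs (snoRNAs), 10 rose and 7 did not pass. These genes carry snoRNAs, which guide the chemical modification of ribosomal RNA, in their introns, and many of their spliced transcripts are quickly degraded. The list held 21 host genes, none of the 17 tested was lower, and their median log2 fold change was 0.74. None was lower at an unadjusted edgeR p under 0.05 or with DESeq2 either, which called 11 higher. Of all tested genes edgeR called 10.1% higher and 14.3% lower, and of the 200 abundant lncRNAs 18.5% and 33.0%. Gas5, Snhg1, Snhg8, Snhg20 and Zfas1 were among the 200, and all 5 were higher. Judged by position instead of by name, 5 of the 200 held annotated snoRNAs on their own strand, and these were Gas5 (8 snoRNAs), Snhg1 (8), Zfas1 (3), 2410006H16Rik (3) and Snhg8 (1), all of them higher.

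Gas5 (chromosome 1, 161034916 to 161038539, plus strand), a growth arrest gene whose RNA can also bind the glucocorticoid receptor, was at 158, 168.5 and 156 CPM with PGE2 and 72.1, 71.2 and 69.8 with vehicle. The groups were far apart against a spread of a few percent, with a log2 fold change of 1.18 ± 0.08 (SE, edgeR adjusted p = 0.000158). Snhg8 was at 18.2, 26.9 and 22.4 CPM with PGE2 and 7.88, 10.4 and 9.49 with vehicle, with groups apart and a log2 fold change of 1.28 ± 0.17. Snhg1 was at 15.1, 21.0 and 17.3 CPM with PGE2 and 8.01, 9.05 and 7.95 with vehicle. In Snhg1 too every PGE2 library was above every vehicle library, with a log2 fold change of 1.10 ± 0.15. Zfas1, on the strand opposite Znfx1, rose from 16.2, 16.6 and 21.0 CPM to 28.9, 32.5 and 36.8. 2410006H16Rik rose from 67.9, 69.0 and 69.9 CPM to 111, 114 and 118.5, with a log2 fold change of 0.73 ± 0.07 (SE, edgeR adjusted p = 0.000571). Below the 200, Snhg3, Snhg6, Snhg12, Snhg15 and Snhg16 rose, with log2 fold changes from 0.68 for Snhg6 to 1.28 for Snhg15, and Snhg17 (0.01) and Dancr (-0.05) stayed near 0 without passing.

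**Figure D3:**
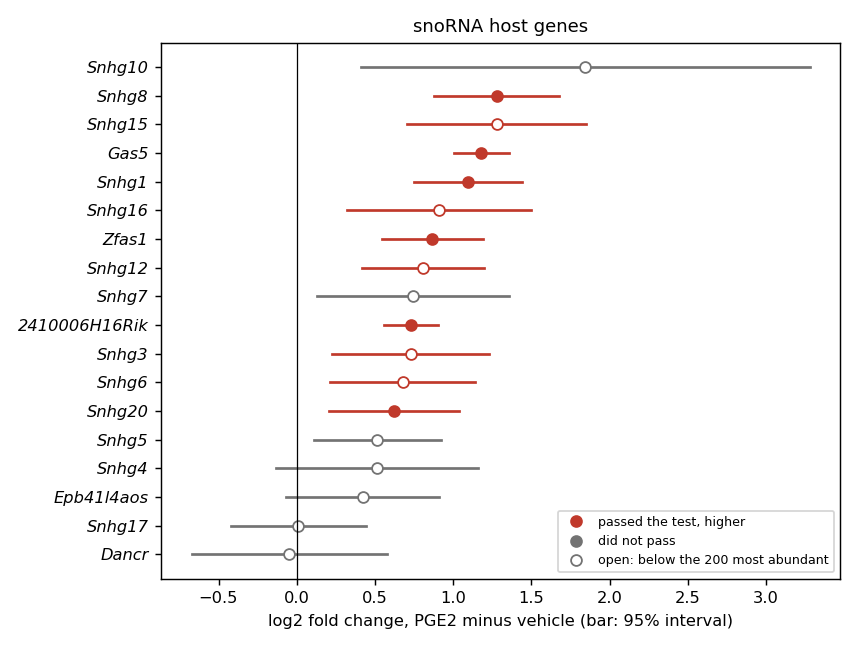
Log2 fold change with its 95% interval (not adjusted for the number of genes) for the 17 tested snoRNA host genes of the list and 2410006H16Rik. All 6 filled points, which are among the 200 most abundant lncRNAs, are red (passed, higher), and Snhg17 and Dancr lie at 0.

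Many snoRNA host genes are known to start with a C followed by a run of pyrimidines, the motif of genes for the translation machinery. The first transcribed bases of 5 hosts are shown to compare them, each as 10 bases before and 20 bases from an annotated start (RefSeq GRCm38.p6, strand of the gene), with capitals for an unbroken run of C or T that begins with C at the start itself.
Gas5, inner start (chr1:161035156-161035185, plus strand): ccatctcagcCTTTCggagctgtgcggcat
Gas5, upstream start (chr1:161034591-161034620, plus strand): gcgggcccgcgagctcgacagcccggagcc
Snhg8 (chr3:123508317-123508346, minus strand): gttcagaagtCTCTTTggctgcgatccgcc
Snhg1 (chr19:8723477-8723506, plus strand): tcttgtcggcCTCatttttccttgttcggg
Snhg20 (chr11:117076773-117076802, plus strand): gttccggccggaagtgcatttgcagagctg
Zfas1 (chr2:167062924-167062953, plus strand): tgcgccccgggcggccgcaggtctcggctg
Of the 2 annotated starts of Gas5, the upstream one has no such run. A run of at least 5 at any annotated start was found for 3 of the 18 listed hosts in the promoter table (Gas5, Snhg7 and Snhg8) and for 3.01% of all its 27025 genes. An annotated start can be off by a few bases, which moves such a run in or out.

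Of 20 lncRNAs listed for immunity and stress, 14 have a row and 3 are among the 200. Mirt2 and the host of miR-223, described above, are not on this list. Of the 14 with a row, 4 could be tested and 1 rose (10.1% of all tested genes were higher). This was Ptgs2os2 (lincRNA-Cox2; chromosome 1, 150159043 to 150164948, minus strand), which regulates inflammatory genes in macrophages. It was at 16.8, 30.9 and 29.0 CPM with PGE2 and at 2.75, 4.19 and 5.59 with vehicle. Every PGE2 library was above every vehicle library, with a log2 fold change of 2.61 ± 0.31 (SE, edgeR adjusted p = 0.000964). Its nearest coding gene, Ptgs2, which encodes the inducible enzyme of prostaglandin synthesis, lies 50808 bases away and rose by 2.68 ± 0.31 on the same scale. Morrbid, known for setting the lifespan of short-lived myeloid cells, was at 14.0, 9.30 and 13.1 CPM with PGE2 and 15.5, 13.6 and 11.3 with vehicle, with groups that overlapped and a log2 fold change of -0.15 (SE 0.19). AW112010, an interferon-inducible transcript from which a peptide is translated, was at 7.18, 23.3 and 20.8 CPM with PGE2 and 5.91, 13.2 and 12.8 with vehicle. Replicate 1 was low in both groups, and AW112010 did not pass without the block (edgeR adjusted p = 0.314) but did with it (0.00699). Gm15441, below the 200, had an adjusted p of 0.0627 with edgeR and 0.0358 with the block.

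The largest rise was that of Gm41767, an RNA of unknown function on chromosome 18 (68789565 to 68795213, plus strand). It was at 17.3, 39.7 and 29.6 CPM in the PGE2 libraries and had 0 counts in each vehicle library. With 3 counts in the 3 vehicle libraries together as the floor, it was at least 1325-fold higher, and at least 1078-fold higher without PGE2 replicate 2. Gm33345 (chromosome 5, 67405476 to 67419804, plus strand) was at 25.2, 38.8 and 38.5 CPM with PGE2 and 2.60, 3.24 and 4.56 with vehicle, a 9.83-fold rise. 4933432I03Rik was at 16.1, 23.8 and 21.2 CPM with PGE2 and 1.61, 2.09 and 3.11 with vehicle, an 8.92-fold rise. Gm38514 was at 11.1, 12.9 and 15.2 CPM with PGE2 and 1.42, 1.82 and 1.49 with vehicle, an 8.30-fold rise. All 4 carry provisional names, and their annotation gives no function.

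After Ptgs2os2 followed 4930459C07Rik (log2 fold change 2.17 ± 0.20), Gm30509 (2.11 ± 0.18), LOC115490433 (1.59 ± 0.16), LOC115487829 (1.55 ± 0.33), Gm36856 (1.40 ± 0.22), Gm32287 (1.39 ± 0.14) and AI839979 (1.36 ± 0.14). Each of them had all PGE2 libraries above all vehicle libraries. Gm32287 (chromosome 2, 167769108 to 167777927, minus strand) had the highest mean TPM among them, 49.3. It was at 199.8, 234 and 228 CPM with PGE2 and 74.0, 75.9 and 102 with vehicle. LOC115490433 was at 36.5, 46.4 and 45.3 CPM with PGE2 and at 12.1, 13.4 and 17.0 with vehicle.

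Among the falls, Gm36723 had the largest change (chromosome 12, 25355901 to 25471867, plus strand). It was at 2.67, 0.822 and 1.15 CPM with PGE2 and 22.3, 8.60 and 9.88 with vehicle, a log2 fold change of -3.14 ± 0.52 (SE, edgeR adjusted p = 0.00372), or -1.35 on log2(TPM + 1). Replicate 1 was the highest library of both groups. Gm41914 was at 5.003, 2.05 and 2.50 CPM with PGE2 and 28.4, 23.0 and 21.5 with vehicle, a 7.64-fold fall. E230014E18Rik (chromosome 10, 84517703 to 84523271, plus strand) was at 16.3, 8.72 and 7.76 CPM with PGE2 and 79.2, 71.3 and 72.7 with vehicle, a 6.82-fold fall, with all PGE2 libraries far below all vehicle libraries. The next were 9830166K06Rik (log2 fold change -2.14 ± 0.42), Gm31583 (-1.85 ± 0.13), Gm31719 (-1.84 ± 0.19), Gm20658 (-1.81 ± 0.17), Gdap10 (-1.77 ± 0.31), Gm30807 (-1.74 ± 0.17), Gm34589 (-1.59 ± 0.24), Gm41659 (-1.54 ± 0.23) and Gm16553 (-1.51 ± 0.25). The log2 fold change of Gm30807 was -1.14 on log2(TPM + 1).

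**Figure D4:**
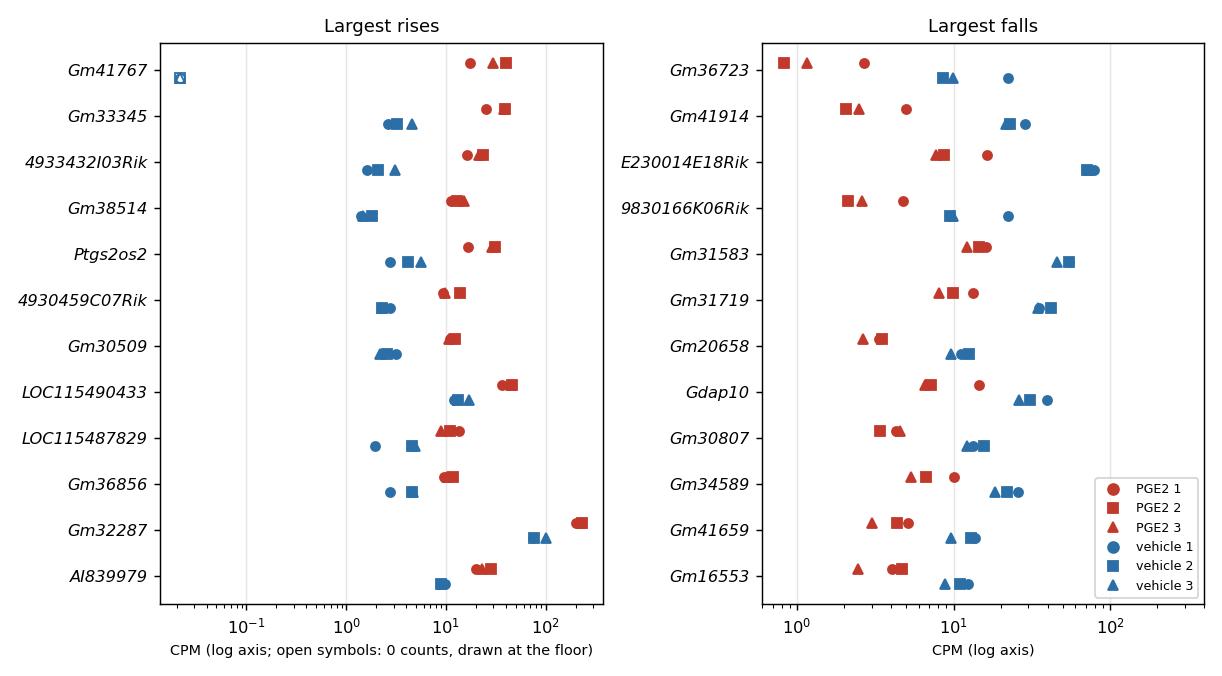
CPM on a log axis for the 12 largest rises and the 12 largest falls, one symbol per library (red PGE2, blue vehicle, shape the replicate number). The 24 were picked among RNAs that passed and whose groups did not overlap, so the gap between red and blue is part of the choice. The open symbols of Gm41767 are vehicle libraries with 0 counts, drawn at the CPM that 3 counts over the group would give.

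Some of the most abundant RNAs also fell. Gm26740 (chromosome 10, 22186285 to 22306382, minus strand) was at 245, 243 and 205 CPM with PGE2 and 391, 360.0 and 357 with vehicle, a log2 fold change of -0.68 ± 0.10 (SE, edgeR adjusted p = 0.00196). 2610507I01Rik (chromosome 11, 59197793 to 59202431, minus strand) was at 159, 117 and 96.5 CPM with PGE2 and 297, 269 and 227 with vehicle, with no overlap and a 2.13-fold fall. Gm20605 was at 296, 279 and 296 CPM with PGE2 and 406, 409 and 467 with vehicle, a log2 fold change of -0.56 ± 0.09. Ndufb1-ps, one of the 5 that RefSeq calls protein-coding, rose from 30.9, 35.6 and 36.9 CPM to 51.9, 42.3 and 44.8. Its adjusted p of 0.0268 with edgeR rose to 0.142 on log2(TPM + 1) with limma, and to 0.0544 to 0.0767 without PGE2 replicate 1 or 3 or vehicle replicate 1 or 2.

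Where an RNA lies against other genes bears on its count, because it is not stated whether reads were counted by strand. Of the 200, 77 overlapped no other annotated gene. Of these 9 (11.7%) were higher and 33 (42.9%) lower, and their median log2 fold change was -0.40. Among all tested genes in the count range of the 200, 14.2% were higher and 22.3% lower. The other 123 of the 200 overlapped a gene, of which 28 were higher and 33 lower with a median of -0.16. Of the 16 that overlapped a protein-coding gene on the same strand none was higher and 8 were lower with edgeR. None of them was higher at an unadjusted p under 0.05 or with DESeq2. Gm20605 is one of these: it spans Lrch4, which had a log2 fold change of -0.87. Gdap10 is another, in the locus of Nampt, an enzyme of NAD synthesis, whose own log2 fold change of -0.38 did not pass.

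Of the 66 RNAs that overlapped a protein-coding gene on the other strand 17 were higher and 16 lower. Gm33345 overlaps Bend4, which had a log2 fold change of 2.53, LOC115490433 overlaps the tetraspanin gene Cd9 (0.78), and Gm41914 overlaps Agap1 (-1.40), each with the same sign as the lncRNA. Overlap was judged on whole gene spans. Where exons of such a pair overlap, their reads cannot be told apart without strand. Other pairs had opposite signs. Zfas1 had a log2 fold change of 0.87 and Znfx1 -0.52, LOC115487829 had 1.55 and the small Maf gene Mafg -0.42, and both partners passed the test in each pair.

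Nearest coding neighbours were compared for RNAs that overlap no protein-coding gene. A protein-coding gene lay within 50 kb of 95 of the 200, and for 86 it was tested (83 distinct genes). Of these 86 lncRNAs 45 were called. Of the 83 distinct neighbours 40 were called (48.2%), against 24.4% of all tested genes and 36.5% of those in the count range of the 200, in which 66 of the 83 fall. Both were called in 24 pairs, 17 in the same direction and 7 in opposite directions. Across the 86 pairs the log2 fold changes correlated with Pearson's r of 0.42 and Spearman's rho of 0.40, a description over pairs from the same 6 libraries, some of which share a neighbour.

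In 4 of the 17 pairs both genes rose. Gm38514 lies 1295 bases from Dnah17, a dynein heavy chain gene on the same strand, which had a log2 fold change of 2.08. Gm30509 lies 11338 bases from Sik1, a kinase gene induced by cyclic AMP, which had 1.24. Gm36856 starts 7 bases from Tgif1, a homeobox repressor gene on the other strand, which had 1.22. Snhg1 starts 117 bases from Slc3a2, which encodes the heavy chain of amino acid transporters and had 1.52. Pairs that fell together included E230014E18Rik (3033 bases) and Platr7 (13528 bases; log2 fold change -1.48) on either side of Ckap4, an endoplasmic reticulum membrane protein gene with -1.11. Gm30807 and the actin exporter gene Xpo6 (-0.78), Gm41659 and the actin-binding supervillin gene Svil (-1.73), and Gm20559 and the interferon-induced Samd9l (-1.70) did so too.

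Opposite pairs included Gm13073, which fell by 1.47 on the log2 scale, and the mitochondrial nucleotide carrier gene Slc25a33, 4112 bases away on the same strand, which had 0.87. Gm13073 was at 9.93, 9.10 and 9.77 CPM with PGE2 and 21.5, 28.1 and 30.3 with vehicle. Slc25a33 was at 80.1, 102 and 102 CPM with PGE2 and 46.7, 55.3 and 53.3 with vehicle, so both had groups far apart in opposite directions. 2610507I01Rik, which fell by 1.09, starts 54 bases from Mrpl55, a mitochondrial ribosomal protein gene on the other strand, which had 0.67. Farther than 50 kb, Gm32287 lies 78675 bases from Cebpb, a transcription factor gene of myeloid cells, which had 1.63.

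**Figure D5:**
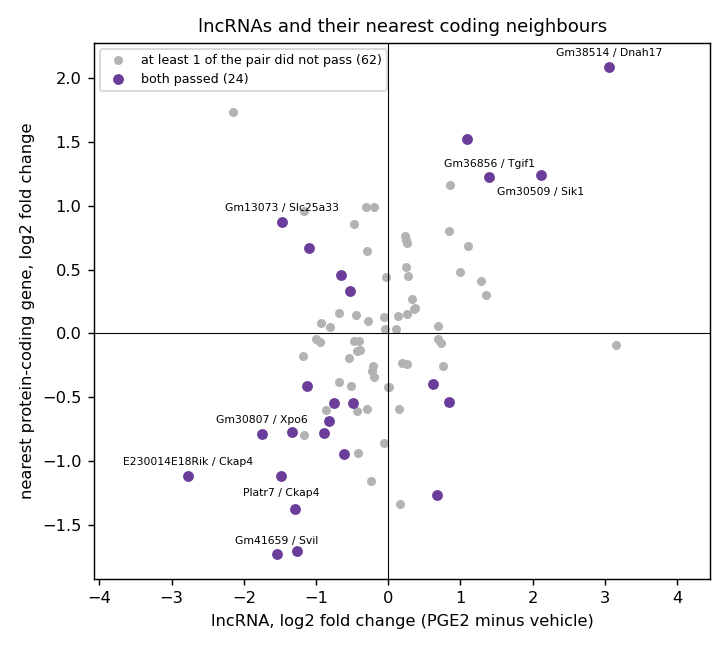
Log2 fold change of the nearest protein-coding gene against that of the lncRNA, for 86 pairs within 50 kb that do not overlap. Of the 24 purple pairs (both passed), 17 lie at the lower left or upper right, and Gm13073 with Slc25a33 lies at the upper left.

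Promoters were searched for the cyclic AMP response element (CRE), the site that CREB is known to bind. A promoter here runs from 250 bases before to 50 bases after an annotated start, and 164 of the 200 had at least 1 in the RefSeq table. The full CRE, TGACGTCA, which reads the same on both strands, was in 4 of the 164 (2.44%) and in 2.03% of all 27025 genes. Of 31 higher RNAs with a promoter 2 held it (6.45%), Gas5 and Gm32287, and of 49 lower ones none. Among all genes with a promoter, 5.72% of 1189 higher and 1.46% of 1781 lower ones held it. The shares in the lncRNAs were thus close to that background. A site of Gm32287 is also that of Gm14321, another of the 4. The shorter TGACG, searched on both strands and contained in every full CRE, was in 13 of the 31 higher (41.9%), 10 of the 49 lower (20.4%) and 23.0% of all genes. Among all genes that rose in these libraries 42.9% held it, so the share in the higher lncRNAs was close to that background. The AP-1 site TGANTCA was in 3 of the 31, 1 of the 49 and 8.97% of all genes. A match is a run of letters and not a shown binding site.

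These 2 promoters of Gm32287 and 1 of Gas5 are printed because they belong to the higher RNAs and hold a full CRE, here in capitals, 5′ to 3′ on the strand of the gene (RefSeq GRCm38.p6).
Gas5, inner start (chr1:161034916-161035215, plus strand): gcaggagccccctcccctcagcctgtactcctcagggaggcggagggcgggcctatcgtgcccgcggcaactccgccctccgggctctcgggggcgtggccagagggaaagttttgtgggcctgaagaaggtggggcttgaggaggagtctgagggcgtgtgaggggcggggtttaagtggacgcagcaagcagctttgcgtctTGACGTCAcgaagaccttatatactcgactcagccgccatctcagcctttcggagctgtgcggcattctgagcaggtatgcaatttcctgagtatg
Gm32287, first start (chr2:167777878-167778177, minus strand): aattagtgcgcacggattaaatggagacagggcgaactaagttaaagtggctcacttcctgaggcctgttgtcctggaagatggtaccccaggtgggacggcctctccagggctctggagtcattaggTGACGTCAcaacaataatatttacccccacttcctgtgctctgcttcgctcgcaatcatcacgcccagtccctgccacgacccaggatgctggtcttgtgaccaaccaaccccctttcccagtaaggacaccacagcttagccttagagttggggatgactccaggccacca
Gm32287, inner start (chr2:167777365-167777664, minus strand): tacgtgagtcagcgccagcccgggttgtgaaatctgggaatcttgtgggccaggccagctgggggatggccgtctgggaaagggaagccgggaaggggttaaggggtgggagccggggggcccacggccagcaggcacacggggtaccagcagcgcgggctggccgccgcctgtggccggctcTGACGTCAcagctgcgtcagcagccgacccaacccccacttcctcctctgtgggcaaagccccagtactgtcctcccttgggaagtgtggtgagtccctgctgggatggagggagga
The CRE begins 46 bases before the inner start of Gas5, whose upstream start has none in its window, and 122 and 67 bases before the starts in Gm32287. Gm14321, also among the 200, starts on the other strand beside the inner start of Gm32287. Its promoter window (chromosome 2, 167777241 to 167777540, plus strand) holds 1 full CRE, 17 bases before its start. This is the same site as the CRE 67 bases before the inner start of Gm32287, read on the other strand. Gm14321 had a log2 fold change of -0.21 and did not pass, while Gm32287 rose, and the difference between them was not tested. B230354K17Rik, which also has a full CRE, did not pass either (0.11).

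At the edge of the selection, the last 2 ranks inside were 1700001L05Rik and Gm36590 with summed counts of 2015 and 2013, and the first 2 outside were BC002059 and Gm30963 with 1999 and 1989. Both RNAs inside the edge fell, and each lost its call without some single libraries, with edgeR adjusted p of up to 0.1003 for 1700001L05Rik and 0.0809 for Gm36590 without vehicle replicate 1. Within groups the coefficient of variation of CPM had a median of 13.4% in vehicle and 14.1% with PGE2 over the 200. Gm20716 varied most, with 341, 0 and 4833 counts in PGE2 replicates 1 to 3, and did not pass. It was named here after its values were seen.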

How the data were processed

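RNA-seq of 6 libraries was compared, 3 with PGE2 and 3 with vehicle, with groups and numbers taken from the titles. The submitters' processing notes name mm10, STAR, Bowtie2, RSEM, StringTie 2.1.3b and DESeq2. Which of them made which value, and whether strand was used, is not given in the sources used. The authors deposited estimated counts per gene as whole numbers, used as unnormalised counts, and TPM per gene per the file headers. The series table also held 18 columns of other libraries, not used. Members and gene lists were chosen with earlier results of these data known.

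Genes with at least 10 counts in at least 3 libraries (15947 of 45777) were tested with edgeR 4.0.16 (R 4.3.3), TMM scaling, the quasi-likelihood test and Benjamini-Hochberg adjustment at 0.05, two-sided, without a replicate block. The script was tested on simulated data. Errors are SEs of the fit or SDs over libraries, and p-values measure the spread between libraries. Neighbours and overlaps came from the coordinates in the files, sequences from RefSeq GRCm38.p6.

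Named RNAs are the 10 with the largest count and the 10 with the largest mean TPM, the 12 largest rises and 12 largest falls that passed without overlap, up to 4 per list by adjusted p and up to 2 in the other direction, 8 pairs with a called neighbour, and 2 on each side of the selection edge. Others named were chosen after their values were seen.

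Deviations from group means correlated at 0.258, 0.174 and 0.187 between same-numbered libraries and at -0.166 to 0.0019 otherwise. The numbers in the titles were therefore taken to pair the libraries in the replicate block, which was an alternative fit. The main edgeR test and the permutation test did not use this pairing. Replicates differed by more than sampling noise. Alternatives were the replicate block, leaving out single libraries, size factors and the Wald test of DESeq2 1.42.0, library totals, other count filters, limma 3.58.1 on log2(TPM + 1) and log2(TPM + 0.1), a minimum log2 fold change of 1, other member sets and neighbour distances of 10 and 100 kb.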

Additional observations from a re-analysis of the deposited data

How the results depend on the processing

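Of the 103 called RNAs, 102 were tested in each of the 14 alternative fits (a minimum fold change apart) and kept their sign in all of them. Called in every one were 71 (25 higher, 46 lower). With the replicate number as a block, 46 members were higher and 82 lower, with 25 calls gained and none lost. Of all genes 2648 were then higher, against 1618 without the block. With a minimum log2 fold change of 1, 8 members were higher and 6 lower, as were 105 and 80 of all genes. On TPM with 0.1 or 1 added, 953 and 967 of all genes were higher, and the median of the members was -0.33 and -0.30. Library totals gave a member median of -0.14, where the median of all genes moved from 0.04 to 0.13, and to -0.06 on log2(TPM + 1). Members that overlap no gene gave 9 higher, 33 lower and a median of -0.40, and members ranked by TPM a median of -0.14. The difference in library share was -0.045 percentage points on TPM against -0.107 on counts. Neighbours within 10 kb gave 11 called pairs against 24. Leaving out 1 library gave 29 to 36 members higher and 51 to 66 lower, 1005 (without vehicle replicate 2) to 1541 of all genes higher, and medians of -0.25 to -0.18. Without PGE2 replicate 2, 1063 were higher. The cause was not tested for any of these, except that subsets hold fewer RNAs. The called RNA not among the 102, Gm41767, could not be tested without any 1 PGE2 library, since the filter asks for 3. By depth the selection ends at a summed count of 2013, and 3 libraries per group limit the exact permutation test to p = 0.1.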
